A study of Mus musculus with 6 samples.

Results

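The genes described here mark basal epithelium and its anchoring to the basement membrane: the keratins Krt5, Krt14 and Krt17, the transcription factor Trp63 (p63), the integrin chains Itgb4 and Itga6, the laminin chains Lama3 and Lamb3, and the ligand Wnt7a. They form a list of 9 chosen by symbol, with earlier results of these data known. Of these, 8 had a row among the 12023 genes of the count table, and all 8 passed the filter on low counts. Trp63 has no row in the table used here and was not analysed. The genes were read in cultures of primary mammary fat pad fibroblasts, as a description of epithelial RNA in each culture. The strains compared were BALB/c and C57BL/6, with 3 biological replicates of each. All mice were healthy females of 8 to 12 weeks, the labels name no transgene or treatment, and cells of both strains grew for 4 days on collagen before RNA was taken. The design text names a magnetic separation without its target. Nothing in the labels shows that same-numbered replicates of the strains belong together.

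The mammary ducts of the fat pad hold an inner layer of luminal cells and an outer layer of basal, or myoepithelial, cells, which rest on a basement membrane. Basal cells carry keratin filaments of a type II chain, keratin 5, paired with a type I chain, keratin 14 or 17. At hemidesmosomes these filaments are linked to integrin α6β4, the product of Itga6 and Itgb4, which binds laminin-332 outside the cell, a trimer that includes the chains encoded by Lama3 and Lamb3. The transcription factor p63 maintains basal identity and is known to act on Krt5 and Krt14, and Wnt7a encodes a secreted WNT ligand made by many epithelia.

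On GRCm38, the assembly of mm10, the type I keratin genes Krt14 (ENSMUSG00000045545.8, chr11:100203162-100207548, minus strand) and Krt17 (ENSMUSG00000035557.9, chr11:100256217-100261029, minus strand) lie near each other. Krt5 (ENSMUSG00000061527.7) is at chr15:101707070-101712898 on the minus strand. Itgb4 (ENSMUSG00000020758.15) is at chr11:115974709-116008412 and Itga6 (ENSMUSG00000027111.15) at chr2:71745616-71858416, both on the plus strand. Lamb3 (ENSMUSG00000026639.18) is at chr1:193207699-193343878 on the plus strand, and Wnt7a (ENSMUSG00000030093.7) is at chr6:91363981-91411363 on the minus strand. All are annotated as protein-coding. The last 500 nt of Krt14 and Krt17 share a stretch of 186 nt at 95.7% identity, so counts of these keratins are uncertain where reads fell there. The other 6 matched no other annotated transcript over 60 nt or more with 95% identity or above.

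Promoter windows are shown for Krt5, whose levels departed from those of the other keratins, and for Wnt7a, which had the widest range between libraries. RefSeq on GRCm38.p6 gave windows for 4 of the 9 genes. The window of Krt14 begins 1518 bases inside the annotated gene and is not shown. No searched motif was found in the 2 windows of Lamb3, whose RefSeq starts lie 94295 and 94544 bases inside the annotated gene. The 250 bases before the RefSeq start of Krt5 (chr15:101712906-101713155, minus strand) and of Wnt7a (chr6:91411354-91411603, minus strand) are given 5′ to 3′, with capitals marking motif matches on either strand:
Krt5: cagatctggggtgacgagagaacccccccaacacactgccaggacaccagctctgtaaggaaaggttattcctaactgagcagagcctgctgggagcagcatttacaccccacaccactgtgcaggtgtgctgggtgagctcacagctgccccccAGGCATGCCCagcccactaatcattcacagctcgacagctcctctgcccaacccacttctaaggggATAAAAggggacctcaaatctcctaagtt
Wnt7a: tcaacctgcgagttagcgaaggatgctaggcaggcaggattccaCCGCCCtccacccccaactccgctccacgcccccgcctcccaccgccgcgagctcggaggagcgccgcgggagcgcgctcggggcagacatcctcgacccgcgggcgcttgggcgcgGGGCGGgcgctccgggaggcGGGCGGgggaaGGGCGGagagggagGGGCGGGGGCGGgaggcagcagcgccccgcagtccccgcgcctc
In Krt5 the capitals mark a half-site of the p53 family, whose first base lies 95 bases before the start, and the TATA-like run ATAAAA 29 bases before it. In Wnt7a they mark 6 matches to the GC box GGGCGG, and the GC content of the window was 77.6% against 56% in Krt5. Among 32851 windows of the same length the half-site occurred in 7.13%, ATAAAA in 17%, GGGCGG in 32.7% and the AP-1 motif TGANTCA, which neither window holds, in 6.75%. These are matches of letters and not sites of binding.

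Total counts ran from 1035485 to 4665896 per library, so that 3 counts correspond to between 2.9 and 0.643 CPM, which are counts scaled to a library total adjusted by TMM factors. The measurement covers 3′ ends, and a count depends little on transcript length, so CPM were not divided by length. C57BL/6 replicate 1 stood apart from the other libraries. In it, log2 CPM minus the mean of C57BL/6 replicates 2 and 3 had a median of -1.60 over the 2163 genes with the lowest GC content of the transcript and of 0.69 over the 2162 with the highest. The members' strain differences, ranges, ratios to other genes and distances from their sum that it moved by over 1.5 times are also given without it. Per the labels the cells are fibroblasts, and of 12 fibroblast markers all but Lum had a row in the table used here, and all of those but Fap had counts in every library. Col1a2, a fibrillar collagen, ranged from 592 to 5064 CPM and Fbln2, a matrix protein, from 650 to 2041 CPM. In C57BL/6 replicate 1 several were low, with Fap at 0, Pdgfra and Col6a1 at 4.54, Postn at 16.6 and Col3a1 at 20.4 CPM. Thy1, Col1a1 and Fbln2 were not at their lowest there, at 321, 216 and 902 CPM, where BALB/c replicate 2 had 152, 190 and 650 CPM.

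The members together took 0.0549%, 0.293% and 0.225% of all counts in BALB/c replicates 1, 2 and 3, against 0.378%, 0.0636% and 0.265% in C57BL/6 replicates 1, 2 and 3. The exact 95% interval, which covers counting error only, was 0.0512% to 0.0589% for BALB/c replicate 1 and 0.369% to 0.388% for C57BL/6 replicate 1. Each strain thus had 1 culture with a low sum, BALB/c replicate 1 and C57BL/6 replicate 2, and the other 4 cultures lay well above both. On the log2 scale the strains' mean levels of the sum differed by -0.35, BALB/c minus C57BL/6, and the spread between libraries of a strain was 1.37 (pooled SD, n = 3 each). Without C57BL/6 replicate 1 this difference was 0.24, and without BALB/c replicate 1 it was 0.39, so its sign rested on single libraries. In bulk RNA, fewer epithelial cells and less RNA per cell cannot be told apart.

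**Figure D1:**
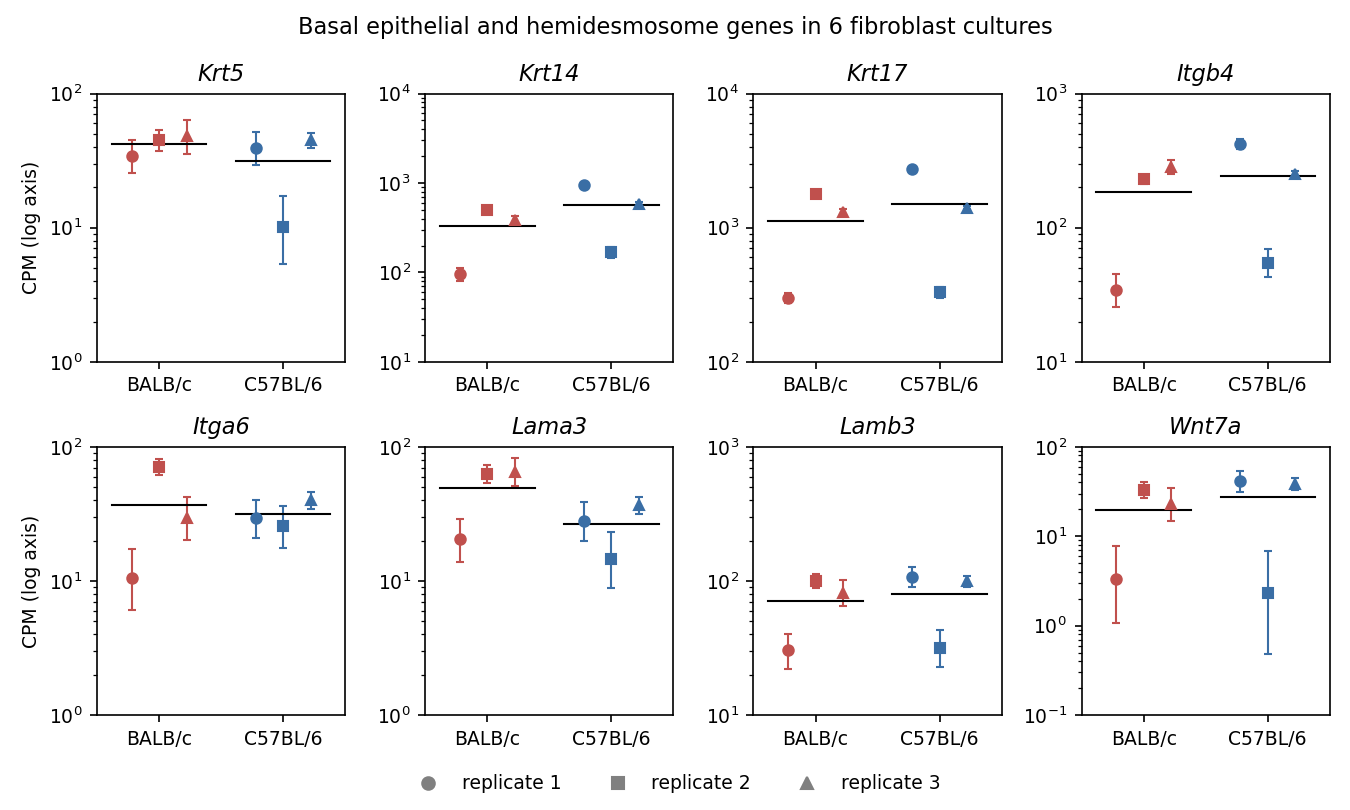
CPM of the 8 genes on log axes in each library, BALB/c left and C57BL/6 right, with symbols for the replicates, bars for the exact 95% counting interval and a black line for the mean of 3 libraries. BALB/c replicate 1 and C57BL/6 replicate 2 are the lowest of their strain in all 8 genes, and the strains overlap in all 8.

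Keratins gave most of these counts. Krt17, a type I keratin of basal and stressed epithelium, had 301, 1773 and 1318 CPM in BALB/c replicates 1, 2 and 3, against 2744, 330 and 1408 CPM in C57BL/6 replicates 1, 2 and 3. It made up 51.8% to 63% of the member counts in every library. Krt14, the usual type I partner of keratin 5, had 95.1, 501 and 386 CPM in the BALB/c replicates, against 949, 168 and 586 CPM in the C57BL/6 replicates. Both keratins were lowest in BALB/c replicate 1 and highest in C57BL/6 replicate 1, a span of 9.13-fold in Krt17 and 9.97-fold in Krt14, or 5.9-fold and 6.16-fold without C57BL/6 replicate 1. Krt5, the type II keratin, had 34.3, 44.7 and 47.9 CPM in the BALB/c replicates, against 39.3, 10.1 and 44.7 CPM in the C57BL/6 replicates. Its level was thus similar in 5 libraries and low in C57BL/6 replicate 2 alone, where it rested on 13 counts.

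Of the integrin chains, Itgb4 (β4) varied with Krt14 and Krt17 and Itga6 (α6) less so. Itgb4 had 34.3, 231 and 284 CPM in BALB/c replicates 1, 2 and 3, against 418, 54.9 and 250 CPM in C57BL/6 replicates 1, 2 and 3. Itga6, whose product also pairs with β1 in other cell types, had 10.6, 70.5 and 29.7 CPM in the BALB/c replicates, against 29.5, 25.5 and 39.8 CPM in the C57BL/6 replicates. Within C57BL/6 it differed little between libraries while Itgb4 spanned from 54.9 to 418 CPM.

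The laminin-332 chains Lama3 and Lamb3 had a narrower range than Krt14 and Itgb4. Lama3 (ENSMUSG00000024421.16, chr18:12333819-12583013, plus strand), which encodes the α3 chain, had 20.5, 62.7 and 65.2 CPM in BALB/c replicates 1, 2 and 3, against 28, 14.7 and 36.6 CPM in C57BL/6 replicates 1, 2 and 3. Lamb3 (β3) had 30.4, 99.6 and 81.5 CPM in the BALB/c replicates, against 107, 31.7 and 99.4 CPM in the C57BL/6 replicates. Both chains were lower in BALB/c replicate 1 than in the other BALB/c libraries and lowest within C57BL/6 in replicate 2. In C57BL/6 replicate 1, where Lamb3 was at its highest, Lama3 was below its level in replicate 3.

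Wnt7a had the widest range of the members, 17.9-fold between libraries. It had 3.3, 33 and 23 CPM in BALB/c replicates 1, 2 and 3, from 5, 93 and 24 counts, against 41.6, 2.32 and 38.4 CPM in C57BL/6 replicates 1, 2 and 3, from 55, 3 and 190 counts. In BALB/c replicate 1 and C57BL/6 replicate 2 it was near the limit of 3 counts, with exact 95% counting intervals that span several-fold. Its close relative Wnt7b, not a member, was more abundant, at 29.1, 201 and 159 CPM in the BALB/c replicates and 346, 54.2 and 173 CPM in the C57BL/6 replicates, and was low in the same libraries.

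Whether these genes differed between the strains was tested in the fit over all genes. None of the 8 passed in either direction at an adjusted p under 0.05 in edgeR's quasi-likelihood test, where 0.206% of the 8752 tested genes did, and none had an unadjusted p under 0.05, where 3.86% of all did. DESeq2, which called 0.632% of the 12021 genes it tested, and limma-voom, which called 0.0343% of its genes, also called 0 of the 8. The strains overlapped in all 8, where 11.4% of all tested genes did not overlap. The log2 differences, BALB/c minus C57BL/6, were -0.79 ± 0.74 for Krt14 and 0.88 ± 0.53 for Lama3 (SE) at the extremes, both with an edgeR adjusted p of 0.954. Krt5 had 0.41 ± 0.52, Itga6 0.23 ± 0.62, Lamb3 -0.17 ± 0.57, Krt17 -0.40 ± 0.82, Itgb4 -0.40 ± 0.86 and Wnt7a -0.47 ± 0.99. Of the 8, 3 estimates were above 0 and 5 below, with a median of -0.29, and over all tested genes the median was 0.01. The edgeR adjusted p of all 8 lay between 0.954 and 0.969. The standard error ran from 0.52 for Krt5 to 0.99 for Wnt7a, so a log2 difference of 1 could not be told from none in any of the 8. Without C57BL/6 replicate 1 the estimate was -0.21 for Krt14 and -0.15 for Wnt7a, and without C57BL/6 replicate 2 it was 0.02 for Krt5. Without C57BL/6 replicate 1 the estimates also turned to 0.37 for Krt17, 0.23 for Itgb4 and 0.07 for Lamb3, and without BALB/c replicate 1 to 0.04, 0.09 and 0.18 for the same genes and 0.02 for Wnt7a. Without BALB/c replicate 2, Itga6 turned to -0.68. Lama3 had 1.25 ± 0.44 (SE) without BALB/c replicate 1. In that fit 1 of the 8 had an unadjusted edgeR p under 0.05, as did 271 of all 9049 tested genes, and 0 of the 8 passed after adjustment.

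**Figure D2:**
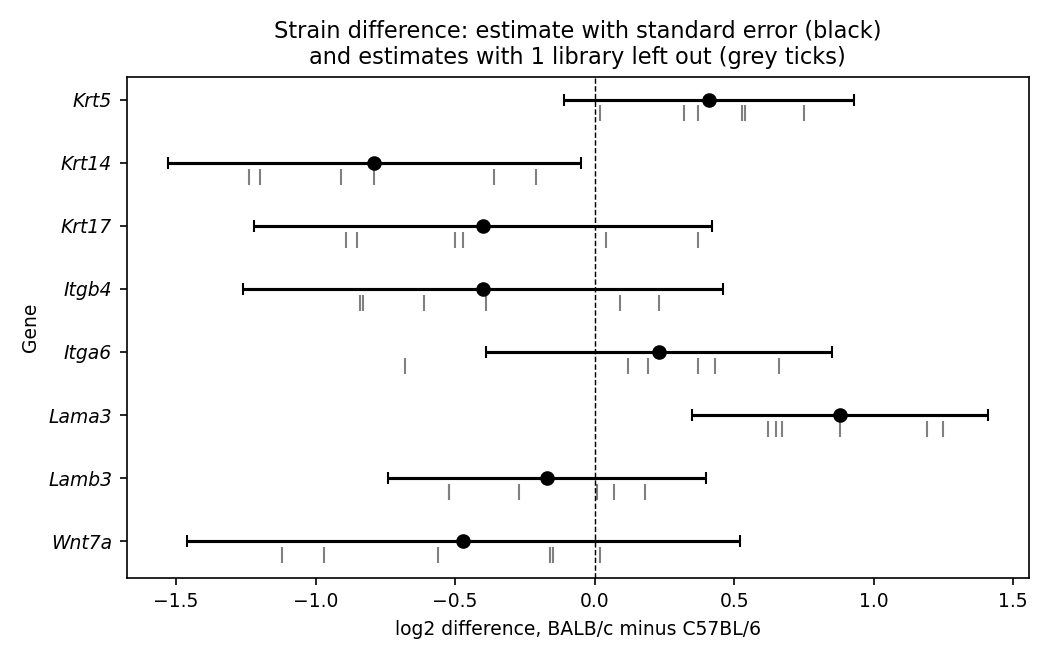
log2 difference, BALB/c minus C57BL/6, for each gene, with the standard error from edgeR in black and the estimates with 1 library left out as grey ticks. The estimates run from -0.79 for Krt14 to 0.88 for Lama3, and leaving out 1 library moves Krt17, Itgb4, Itga6, Lamb3 and Wnt7a across 0.

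The members were next compared by their profile, log2 CPM relative to the mean of the 6 libraries. The distance between profiles was the root mean square difference over the 6 libraries, on the log2 scale. Set against the summed other members, Krt17 had 0.23, Krt14 0.29, Itgb4 0.31, Lamb3 0.42 and Wnt7a 0.51, while Itga6 had 0.81, Lama3 0.85 and Krt5 0.89. The closest pair was Itgb4 and Krt17, at 0.29, and the farthest was Itga6 and Wnt7a, at 1.14. The median distance of 5462 other genes from the member sum was 1.15. Krt14, Krt17 and Itgb4 thus shared a pattern, with Krt14 and Itgb4 the farthest apart of them, at 0.36. Wnt7a and Lamb3 lay somewhat farther out. Wnt7a was 0.46, 0.49 and 0.63 from Krt17, Itgb4 and Krt14. Lamb3 was 0.45 from Krt14 and 0.48 from Krt17. It was 0.54, 0.55 and 0.57 from Lama3, Itga6 and Krt5, and 0.60 and 0.78 from Itgb4 and Wnt7a. Krt5, Itga6 and Lama3 departed from the shared pattern. All 3 stood low in C57BL/6 replicate 1, at 0.24 for Krt5, -0.01 for Itga6 and -0.23 for Lama3, where the member sum had 1.37. Krt5 and Lama3 also stood above the sum in BALB/c replicate 1, at 0.05 and -0.66 where the sum had -1.67, and Itga6 in C57BL/6 replicate 2, at -0.21 where the sum had -1.40. Without C57BL/6 replicate 1 the distance was 0.48 for Lama3 and 0.57 for Itga6, close to the 0.56 of Wnt7a, and 0.79 for Krt5.

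**Figure D3:**
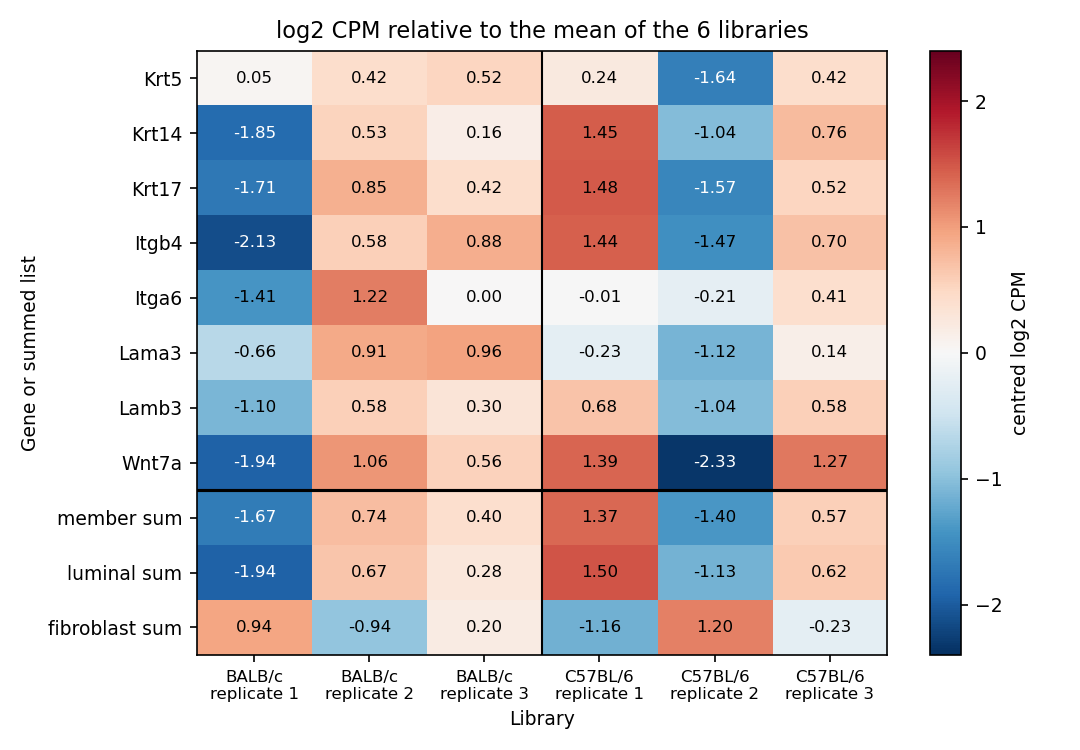
Centred log2 CPM of each gene, and below the line of the summed members, luminal genes and fibroblast genes, in each of the 6 libraries, BALB/c left of the vertical line. Red is above and blue below the mean of the 6 libraries. The member sum and the luminal sum share their pattern, from -1.67 and -1.94 in BALB/c replicate 1 to 1.37 and 1.5 in C57BL/6 replicate 1, and the fibroblast sum has the opposite sign in 5 of the 6 libraries.

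The members' levels in C57BL/6 replicate 1 were also set beside the GC content of their transcripts. Relative to C57BL/6 replicates 2 and 3, log2 CPM there was higher by 2.01 for Krt17, 1.91 for Wnt7a, 1.82 for Itgb4 and 1.59 for Krt14, whose transcripts have a GC content of 58.9%, 55.4%, 60% and 57.2%. It was 0.91 for Lamb3 and 0.85 for Krt5, with 55.6% and 56.9%. Itga6 and Lama3, at -0.11 and 0.26, have the lowest GC content of the 8, 48.9% and 51.7%, where the median of all genes was 51.7%. The order of the 8 was not that of GC content throughout, as Wnt7a stood above Krt5 with a lower GC content. The baseline includes C57BL/6 replicate 2, where the member sum was low, at 638 CPM. The part of GC content in these levels was not tested.

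The ratio of counts of a pair of genes within 1 library does not depend on how libraries are scaled. The pairs described were picked after their values were seen, so no test is given for them, and with 3 libraries against 3 an exact two-sided permutation test could not go below p = 0.1. Among all 28 pairs of members, 5 had ratios that did not overlap between the strains, or 17.9%, where 11.6% of all pairs of tested genes did not overlap. Of these 5 pairs, 4 share Krt14, with Krt5, Krt17, Lama3 and Lamb3, and the other is Lama3 with Lamb3. Krt5 per Krt14 was 0.361, 0.0891 and 0.124 in BALB/c replicates 1, 2 and 3, against 0.0415, 0.0599 and 0.0762 in C57BL/6 replicates 1, 2 and 3. It averaged 0.191 ± 0.148 in BALB/c and 0.0592 ± 0.0174 in C57BL/6 (SD, n = 3 each), and 0.0681 in C57BL/6 without replicate 1. The BALB/c spread came from replicate 1, and the counting interval of BALB/c replicate 2, 0.0737 to 0.107, overlapped that of C57BL/6 replicate 3, 0.0662 to 0.0874. The interval of C57BL/6 replicate 2, 0.0314 to 0.105 from 13 counts of Krt5, overlapped those of BALB/c replicates 2 and 3.

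Krt17 per Krt14 was steadier, at 3.16, 3.54 and 3.41 in BALB/c replicates 1, 2 and 3, against 2.89, 1.97 and 2.4 in C57BL/6 replicates 1, 2 and 3. These keratins share a near-identical stretch, as given above. Lama3 per Lamb3 was 0.674, 0.63 and 0.8 in the BALB/c replicates, against 0.262, 0.463 and 0.368 in the C57BL/6 replicates, or 0.701 ± 0.0883 in BALB/c and 0.365 ± 0.101 in C57BL/6 (SD, n = 3 each). Without C57BL/6 replicate 1 the C57BL/6 mean was 0.416. Relative to the β3 chain, transcripts of the α3 chain were thus more abundant in each BALB/c library than in any C57BL/6 library, though the counting interval of C57BL/6 replicate 2 overlapped those of all 3 BALB/c libraries and that of C57BL/6 replicate 3 overlapped that of BALB/c replicate 1. Itga6 per Itgb4 overlapped between the strains, with 0.308, 0.306 and 0.105 in the BALB/c replicates and 0.0705, 0.465 and 0.159 in the C57BL/6 replicates, a span of 6.59-fold. Krt5 per Krt17 overlapped too, with a span of 7.97-fold, or 4.54-fold without C57BL/6 replicate 1.

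**Figure D4:**
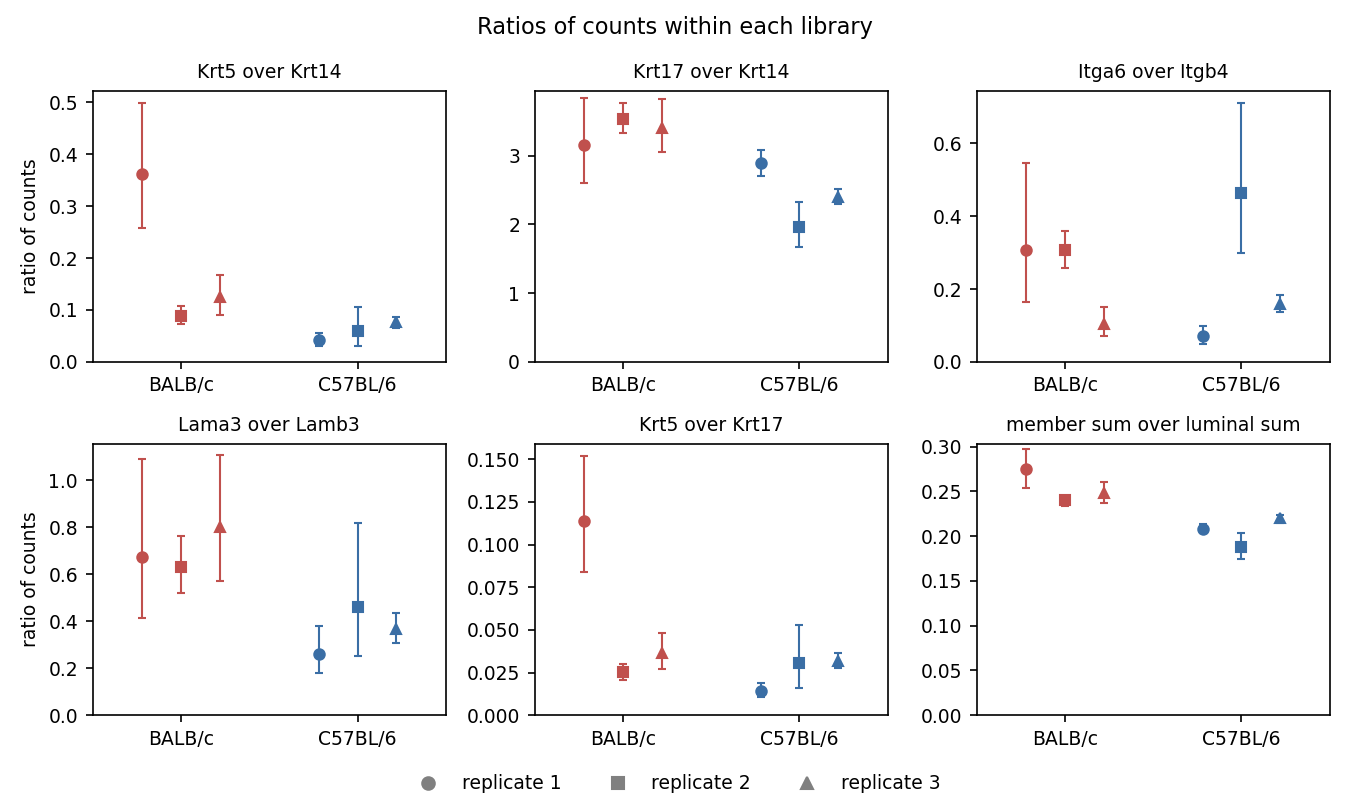
Ratios of counts within each library, BALB/c left and C57BL/6 right, with symbols for the replicates and bars for the exact 95% counting interval. Krt5 over Krt14 falls between 0.0891 and 0.361 in BALB/c and between 0.0415 and 0.0762 in C57BL/6, while Itga6 over Itgb4 and Krt5 over Krt17 overlap between the strains.

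The members were set beside luminal markers, since both layers of the duct can be carried into a fibroblast culture. The 24 luminal genes of the table summed to 1925, 11754 and 9012 CPM in BALB/c replicates 1, 2 and 3, against 20904, 3389 and 11397 CPM in C57BL/6 replicates 1, 2 and 3. Of these 18 were tested and 0 passed, with 5 estimates above 0 and 13 below. Krt8 and Krt18, the keratins of simple epithelium, averaged 1750 and 2011 CPM over the 6 libraries. Not every luminal gene followed the luminal sum. In C57BL/6 replicate 1, where Krt8 and Krt18 were highest, at 3499 and 4072 CPM, Esrp1, Cd24a and Areg were lowest, at 6.05, 13.6 and 0.756 CPM. Epcam and Cdh1 had 166 and 160 CPM there, against 360 and 357 CPM in BALB/c replicate 2. The member sum per luminal sum was 0.275, 0.24 and 0.248 in the BALB/c replicates, against 0.208, 0.188 and 0.22 in the C57BL/6 replicates. This ratio spanned 1.46-fold over the libraries, where the ratio of the member sum to the sum of 11 fibroblast markers spanned 35.2-fold, from 0.0577 in BALB/c replicate 1 to 2.03 in C57BL/6 replicate 1. Without C57BL/6 replicate 1 the ratio to the fibroblast sum spanned 19.6-fold and its C57BL/6 mean was 0.337 in place of 0.902, while the span of the ratio to the luminal sum was 1.46-fold as before. Without Lcn2, a secreted lipocalin of epithelium that was left out after its values were seen, the ratio to the luminal sum was 0.276 ± 0.0161 in BALB/c and 0.244 ± 0.0333 in C57BL/6 (SD, n = 3 each), and the strains overlapped.

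Of 16 other genes of basal and stratified epithelium, 11 had a row in the table used here and 7 were tested, and their values are given further on. Krt15, Krt6b, Krt75, Dsc3 and Fat2 have no row there, and neither has Trp63. Krt16, Dsg3, Jup and Jag2 were below the filter, and Dsg3, a desmoglein of stratified epithelium, lay between 0 and 2.02 CPM. Col17a1, the collagen of hemidesmosomes, was below the filter, with 10, 10 and 8 counts in BALB/c replicates 1, 2 and 3 and 1, 1 and 23 counts in C57BL/6 replicates 1, 2 and 3. Genes of myoepithelial contraction, most of which cultured fibroblasts also express, did not share the pattern of the members. Of 6 tested 0 passed, all 6 estimates lay below 0, and Tagln and Cnn1 had -0.69 ± 0.28 and -1.25 ± 0.25 (SE). Tagln gave most of the contractile sum, with 3037 of 3473 CPM in BALB/c replicate 1 and 5364 of 6209 CPM in C57BL/6 replicate 1. The contractile sum had a distance of 1.23 from the member sum, near the median of 1.15 for other genes. The luminal sum had 0.18 and the fibroblast sum 1.98. Epithelial RNA, read as the member sum, therefore varied with the sum of luminal markers, though not with each of them. Krt17 made up 51.8% to 63% of the counts in the member sum. Krt5, Itga6 and Lama3 lay farther from the summed other members, at 0.89, 0.81 and 0.85. The levels measured here do not by themselves show which cells of the culture held this RNA.

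Other partners of the hemidesmosome were followed as a list of 6, of which 5 were tested and 0 passed in either direction, with all 5 estimates below 0 and a median log2 difference of -0.65. Itga3, which forms the laminin receptor α3β1, had 79.3, 472 and 397 CPM in BALB/c replicates 1, 2 and 3, against 950, 118 and 452 CPM in C57BL/6 replicates 1, 2 and 3, and so shared the pattern of Itgb4. Col7a1, the collagen of anchoring fibrils, had 29.7, 72.7 and 126 CPM in the BALB/c replicates, against 215, 38.7 and 102 CPM in the C57BL/6 replicates. The plakin Plec, which links keratin to integrin β4, had 299, 404 and 484 CPM in the BALB/c replicates, against 1085, 341 and 575 CPM in the C57BL/6 replicates. Fibroblasts express plectin too, and it varied less than Itgb4. The plakin Dst ranged from 118 to 314 CPM and the tetraspanin Cd151 from 299 to 543 CPM. The log2 differences were -0.68 ± 0.83 for Itga3, -0.65 ± 0.69 for Col7a1, -0.76 ± 0.44 for Plec, -0.61 ± 0.33 for Dst and -0.13 ± 0.29 for Cd151 (SE).

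Among 7 tested genes of basal and stratified epithelium 0 passed, with 3 estimates above 0 and 4 below. Sfn, the 14-3-3 protein of epithelium and a described target of p53-family factors, had 135, 855 and 708 CPM in BALB/c replicates 1, 2 and 3, against 1151, 204 and 668 CPM in C57BL/6 replicates 1, 2 and 3, low in the same libraries as the members. Krt6a, a keratin of stressed epithelium, had 1.98, 13.8 and 18.2 CPM in the BALB/c replicates, against 25.7, 9.29 and 24.2 CPM in the C57BL/6 replicates, in the same order within C57BL/6. Pkp1 and Dsp, proteins of desmosomes, were low in BALB/c replicate 1, C57BL/6 replicate 1 and C57BL/6 replicate 2, at 15.2, 23.4 and 18.6 CPM for Pkp1 and 9.91, 12.1 and 18.6 CPM for Dsp. Cdh3, or P-cadherin, varied little, from 7.67 to 13.9 CPM. Snai2, a transcription factor of basal cells and fibroblasts, ran the other way, with 68.7, 12 and 26.8 CPM in the BALB/c replicates, against 0.756, 43.3 and 10.1 CPM in the C57BL/6 replicates. The genes of this list thus did not all follow the members. Their sum had 307, 1091 and 928 CPM in the BALB/c replicates, against 1269, 397 and 890 CPM in the C57BL/6 replicates. Like the member sum it was lowest in BALB/c replicate 1 and, within C57BL/6, in replicate 2. Sfn was its most abundant gene. Egfr, a growth factor receptor shared with fibroblasts, ranged from 35.6 to 85.1 CPM. Of the p63 family and its described targets 3 were tested and 0 passed, and Trp53 stayed between 197 and 251 CPM. Perp, a desmosomal protein, had 18.5, 157 and 71.9 CPM in the BALB/c replicates, against 129, 31.7 and 145 CPM in the C57BL/6 replicates. Among 15 tested genes of the WNT pathway 0 passed, with 7 estimates above 0 and 8 below, and Adgra2, a coreceptor for Wnt7a and Wnt7b, ranged from 43.9 to 166 CPM. Among 13 other laminins, nidogens and basement membrane genes 0 passed, and of these Col4a1 and Col4a2, chains of collagen IV made by fibroblasts as well, had -1.09 ± 0.32 and -0.82 ± 0.31 (SE). Among 8 other integrin chains 0 passed, and Itgb1, the partner of many α chains, had -0.39 ± 0.30 and Itgb5 -0.40 ± 0.33 (SE).

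Over all these lists, markers of other cells included, 108 genes other than the members were tested, and edgeR called 0 of them, with 10 at an unadjusted p under 0.05, or 9.26%, where 3.86% of all tested genes were. limma-voom called 0. DESeq2 called 3, or 2.05% of the listed genes with a row, where it called 0.632% of all. All 3 were lower in BALB/c, the smooth muscle genes Cnn1 and Actg2 and the luminal gene Wfdc18 (DESeq2 adjusted p = 0.00965, 0.0167 and 0.0224).

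Both integrin α6 and β4 also occur in endothelium and Schwann cells. Of the Schwann cell markers, Sox10, which is expressed in mammary epithelium as well, had 13.9, 54.2 and 93.9 CPM in BALB/c replicates 1, 2 and 3, against 174, 45.7 and 141 CPM in C57BL/6 replicates 1, 2 and 3. The myelin gene Mbp had 6.6, 20.6 and 12.5 CPM in the BALB/c replicates, against 33.3, 10.8 and 23.6 CPM in the C57BL/6 replicates. Sox10 and Mbp were thus lowest in BALB/c replicate 1 and, within C57BL/6, in replicate 2, as the members were. The rest of the list did not share this. Ngfr was lowest in BALB/c replicate 3, at 4.79 CPM. Prx, below the filter, was highest in C57BL/6 replicate 2, at 6.97 CPM from 9 counts. S100b, also below the filter, lay between 0 and 4.04 CPM. The marker Cdh19 has no row in the table used here. The list had 5 of 6 genes in the table, and its sum ranged from 31.7 to 114 CPM in BALB/c and from 72.7 to 235 CPM in C57BL/6. Endothelial markers, 7 of 8 in the table, summed to 47.1 to 88.2 CPM in BALB/c and 70.3 to 113 CPM in C57BL/6. Egfl7 and Esam led them, at means of 21.5 and 16.5 CPM over the 6 libraries. The part of these cell types in the levels of Itga6 and Itgb4 was not tested.

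Outside the lists, and where the mean over libraries reached 50 counts, the genes whose profile lay closest to the member sum were Arhgef16, at a distance of 0.09, Ifitm10 at 0.11, Lsr, Foxj1 and Rab25 at 0.15, and Epha2, Lad1 and Pkp3 at 0.16, over 6 libraries. Lsr encodes a receptor of tricellular junctions, Rab25 a GTPase of epithelial trafficking, Epha2 an ephrin receptor, Lad1 a protein of anchoring filaments and Pkp3 a plakophilin of desmosomes, while Foxj1 is known as a factor of ciliated cells. Of the listed genes, Cldn7, a claudin of tight junctions, was closest at 0.12, followed by Sfn at 0.13. Taken one by one, the gene closest to Krt17 was Cldn7 at 0.07, to Krt14 Tmem176b at 0.11, to Lamb3 the WNT receptor gene Fzd6 at 0.11 and to Itgb4 the membrane protease gene St14 at 0.18. For Lama3 it was Lmcd1 at 0.21, for Itga6 Arhgef3 at 0.24, for Krt5 Abca3 at 0.26 and for Wnt7a Chil1 at 0.30. Krt5, Itga6, Lama3 and Wnt7a, the members with the fewest counts, thus had no neighbour as close as those of the other 4.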

How the data were processed

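Counts per gene were analysed in 6 libraries of cultured mammary fibroblasts, grouped by the strain in their labels. The deposited values are raw counts by gene symbol, in 1 table. STAR 2.4.2a, HTSeq, bcl2fastq and mm10 appear in the submitters' processing notes, without settings. The table holds genes with 6 or more counts in some library. Alignment to a C57BL/6 reference can lose BALB/c reads at variant positions.

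edgeR 4.0.16 in R 4.3.3 was run on all genes with filterByExpr, TMM factors of 0.869 to 1.06, a robust quasi-likelihood fit with strain as the only term, and Benjamini-Hochberg adjustment over 8752 genes at 0.05, two-sided. The standard error is the log2 difference divided by the square root of F. Alternatives used DESeq2 1.42.0, limma 3.58.1, other scalings and filters, a replicate block and leaving out libraries. Library pairs of a strain differed beyond sampling noise (chi-square divided by its degrees of freedom, 10.8 to 57.2), so none was taken as a copy. Profiles used log2 CPM with a prior count of 2. BLAST+ 2.17.0 looked for copies of each member's last 500 nt, and positions come from GENCODE. Intervals are exact at 95% and cover counting error only.

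The members and lists were chosen with earlier results of these data known. Named besides the members were the hemidesmosome partners, the most abundant genes of other lists and the genes nearest in profile. Some genes of these lists are not reported here. Perp, Lcn2, Actg2 and Wfdc18 were picked after their values were seen. So were the less abundant genes named of the basal, luminal, fibroblast and Schwann cell lists, and the genes named as having no row.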

Additional observations from a re-analysis of the deposited data

How the results depend on the processing

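None of the 8 genes passed the threshold under any of 15 alternatives, among them DESeq2, limma-voom, other scalings, other filters and leaving out each library. Of 120 values of single genes under these alternatives 108 kept their direction and 12 turned. Krt5 and Lama3 stayed above 0 and Krt14 below 0 in all 15, with 1 library left out from 0.02 to 0.75, 0.62 to 1.25 and -1.24 to -0.21. Itga6 turned to -0.04 with limma-voom, -0.15 with library quality weights and -0.13 with the replicate block. With 1 library left out, the log2 difference ranged from -0.89 to 0.37 for Krt17, -0.84 to 0.23 for Itgb4, -0.68 to 0.66 for Itga6, -0.52 to 0.18 for Lamb3 and -1.12 to 0.02 for Wnt7a, and that of the member sum from -1.14 to 0.39. The count of all genes past the threshold, 18, was 11 with library totals alone, 76 with DESeq2, 3 with limma-voom, 57 with library quality weights and 0 to 25 with 1 library left out. It was 0 with the replicate block, where 158 genes had an unadjusted p under 0.05. Deviations of same-numbered libraries correlated at -0.42, -0.40 and -0.08 across genes, so the numbers were not taken as pairs. The cause of these changes was not tested. Ranges, spans and distances without C57BL/6 replicate 1 were added after seeing the data. Without Lcn2 in the luminal sum, also chosen then, the log2 ratio of member to luminal sum, BALB/c minus C57BL/6, was 0.19 in place of 0.31. Depth limits Wnt7a, with 3 and 5 counts in 2 libraries, and Col17a1.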
